A study of Mus musculus with 12 samples.

Results

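The microRNA miR-210, listed on the arrays as mmu-miR-210, was followed across all 6 groups of the study. It was picked by its name in the scanner files, not by a measured value, and it is 1 of 611 mouse miRNAs on the arrays. The cells were mouse embryonic fibroblasts (MEFs) with a C57BL/6 background, either wild type (XBP1WT) or deficient in XBP1 (XBP1KO). The XBP1 protein, made from a spliced mRNA under stress in the endoplasmic reticulum, switches on genes for protein folding. Each genotype was left untreated or was given tunicamycin at 2 ug/mL, for either 12 h or 24 h, with 2 arrays per group. Tunicamycin blocks N-linked glycosylation and so causes stress in the endoplasmic reticulum. The controls are labelled untreated, and the labels used here mention neither a vehicle, the way the XBP1 allele was made, nor whether the replicates of a group came from separate embryos. The study calls the replicates independent experiments without saying more, so p-values measure the spread between these arrays.

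miR-210 is best known as a marker of hypoxia. Its gene is transcribed by hypoxia-inducible factors in many cell types, fibroblasts included, and the mature miRNA represses genes of mitochondrial iron-sulphur cluster assembly and respiration, among them Iscu. A mature miRNA recognises its targets mainly through its seed, the bases 2 to 8 from its 5′ end. The older name miR-210 stands for the arm now called miR-210-3p. RefSeq places its gene, Mir210, on the minus strand at chr7:141221384-141221493 of the build GRCm38.p6. In the hairpin of 110 bases below, the mature 3p arm, at bases 66 to 87, is in capitals. In the line under it, the capitals mark the seed of that arm.
Mir210 hairpin: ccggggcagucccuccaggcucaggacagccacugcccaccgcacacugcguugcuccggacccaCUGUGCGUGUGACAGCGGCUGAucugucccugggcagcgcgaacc
miR-210-3p: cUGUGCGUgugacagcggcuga

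The seed UGUGCGU was shared by 0 other names among the 1679 mature mouse miRNA names in the RefSeq table. miR-210 thus has no seed relative there with which its 3p arm could be grouped. The arrays measured it with 2 probes of 10 spots each, and the scanner files give no probe sequences.

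The arrays differed in brightness, which sets what can be said of a dim miRNA. The total signal of the mouse miRNAs ran from 94809 to 185591 units on the 4 untreated arrays and from 14076 to 78153 on the 8 tunicamycin arrays. At least 120 mouse miRNAs were called detected on each array. Arrays were therefore brought to 1 common level, that of the 75th percentile among 95 mouse miRNAs which every array detected. Scaled signals below 10.0, the 5th percentile of detected signals, were raised to that floor, which is 3.33 in log2 units. All untreated arrays were on 1 slide and all tunicamycin arrays on another, which means that an effect of slide and one of tunicamycin cannot be told apart. The fibroblast identity was checked against 11 miRNA markers, of which 11 were detected on at least 1 array and 7 on all 12. Of the epithelial markers 0 of 6 were detected on any array, and of the blood markers 0 of 6. Some markers of other cells were detected on at least 1 array: miR-126-3p of 2 endothelial ones, miR-206 of 4 muscle ones, miR-9 and miR-128 of 4 neural ones and miR-294 of 7 pluripotent ones. Xbp1 mRNA is not measured by these arrays, so the genotype labels were not checked.

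Untreated XBP1-deficient cells had more miR-210 than untreated wild type cells. The scaled signal was 28.8 and 28.0 on the wild type arrays and 114 and 117 on the knockout arrays. The replicates of each genotype lay close together and the genotypes did not overlap. The difference was 2.02 on the log2 scale (SE 0.11, n = 2 arrays per group, limma adjusted p = 3.34e-05), a 4.06-fold higher level in knockout cells. It was the third highest of the 256 miRNAs tested, of which 5.08% were higher in untreated knockout cells at an adjusted p under 0.05. Both genotypes were scanned together in each replicate, and within those scans the difference was 1.98 and 2.06. The SE draws on the spread in all 6 groups, and the wild type tunicamycin groups, set to the floor, had none. With the floor lowered to the lowest signal of any detected miRNA, the SE was 0.34 and the limma adjusted p 0.00802. The SE of 0.11 and the limma p-values of miR-210 below are too small in the same way. As a share of the total mouse miRNA signal, miR-210 made up 0.0521% and 0.0522% in wild type cells, against 0.192% and 0.198% in knockout cells.

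After 12 h of tunicamycin, miR-210 was lower in both genotypes. In wild type cells its scaled signal was 6.40 and 4.31, and the software called it not detected on either array. Since both values lay under the floor, the fitted difference of -1.50 (SE 0.11, limma adjusted p = 0.000103) is set by the floor, and the fall is given as a bound. Wild type cells had at least 1.90-fold less miR-210 at 12 h than untreated cells. The bound is the untreated mean over the lowest signal at which any miRNA was detected on each dim array. In knockout cells the scaled signal was 17.1 and 15.7, detected on both arrays and under every untreated value. The difference there was -2.81 (SE 0.11, limma adjusted p = 4.15e-06), a 7.03-fold lower level and the fourth lowest of 256 miRNAs. In wild type 25.4% of the miRNAs tested fell at 12 h, and in knockout 25.4%, so a fall was common, and the size of that in knockout cells stood near its lower end.

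After 24 h miR-210 was again detected in knockout but not in wild type cells. In wild type cells the scaled signal was 3.72 and 3.35, again not detected on either array. By the same bound miR-210 was at least 2.12-fold under untreated cells (fitted difference -1.50, SE 0.11, limma adjusted p = 0.000123). The lowest detected signals of these arrays were 22.6 and 7.97, and against each alone the bound is 1.26-fold and 3.57-fold. Among all miRNAs 14.8% fell in this comparison. In knockout cells the scaled signal was 25.1 and 25.99, detected on both arrays. That is 2.17 lower than untreated knockout cells on the log2 scale (SE 0.11, limma adjusted p = 1.64e-05), or 4.51-fold, where 10.9% of miRNAs fell. Between 12 h and 24 h the knockout level rose by 0.64 (SE 0.11, limma adjusted p = 0.00519), with both 24 h arrays above both 12 h arrays. The rise was 0.55 and 0.73 within the scans that held both times, and 17.6% of miRNAs rose between these times in knockout cells. Without the second knockout array at 12 h the rise was 0.58 and its adjusted p 0.0624. It also missed the threshold in both fits of values that were not scaled between arrays, at 0.17 for the spot signals and 0.29 for the deposited values. In wild type cells both times were at the floor, so their difference of 0 gives no direction, while 21.9% of all miRNAs passed.

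**Figure D1:**
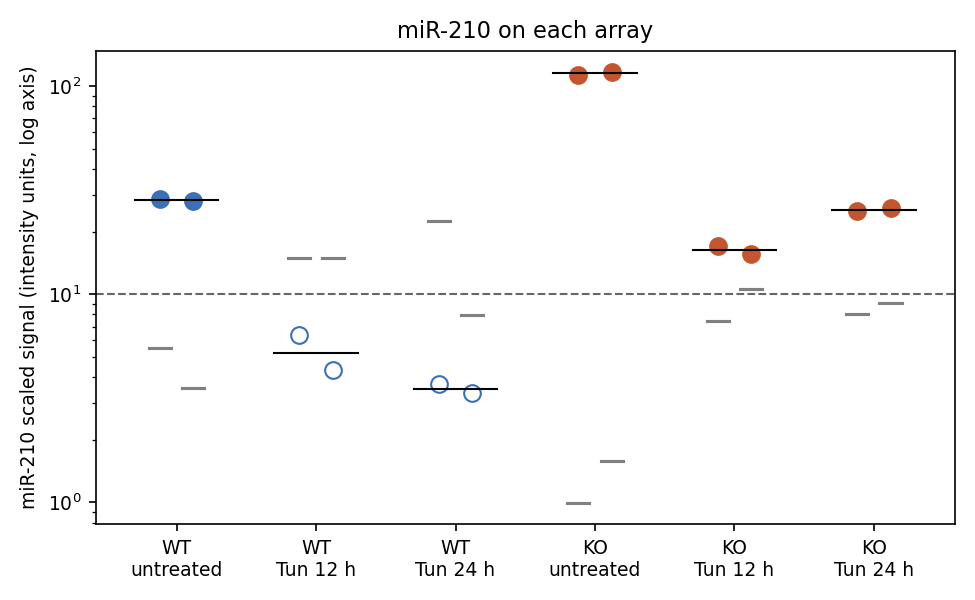
Scaled signal of miR-210 on each of the 12 arrays (log axis), by genotype and tunicamycin time. Filled circles are arrays where the software called miR-210 detected, open circles where it did not, black lines geometric means of 2 arrays, grey dashes the lowest detected signal of any miRNA on that array, and the dashed line the floor of 10.0. The untreated knockout arrays lie near 115, and the 4 wild type tunicamycin arrays lie under the floor and under the lowest detected signal of their own array.

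Over all 12 arrays, the 8 tunicamycin arrays and the 4 untreated ones differed by -1.997 on the log2 scale. A two-sided exact permutation test within genotype gave p = 0.00444, the smallest value this design allows. Every tunicamycin array of a genotype lay under both untreated arrays of that genotype. Over all conditions the 6 knockout arrays were higher than the 6 wild type arrays by 1.36, and the two-sided exact permutation test within condition gave p = 0.00926, again the smallest possible. The knockout arrays were higher in each of the 3 conditions, without overlap.

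Not all of these directions held under another background correction, normexp, which was run with an added offset. The values above start from the software's processed signal, in which the spots of 331 mouse miRNAs detected on no array had a median between -2.36 and -0.400 per array. The normexp correction subtracts the local background around each spot and then fits a model of signal and remaining background to all spots of an array. Here it also added 50 units to every spot, before the probes were summed and the arrays scaled. Under it the wild type difference turned positive, to 1.11 at 12 h and 1.06 at 24 h, beside a median of 1.23 and 1.16 over all miRNAs. The parts of the offset and of the background in this change were not tested. The knockout differences were -0.25 at 12 h and -0.02 at 24 h, beside medians of 0.89 and 1.08, and did not pass the test. Before that correction, the spots of the miRNAs never detected stood 11 to 35 units above (median per array) their local background. The first miR-210 probe stood 13.2 and 33.5 above it on the wild type arrays at 12 h, where the never-detected spots stood at 11 and 28. On these arrays miR-210 spots were nearly as dim as spots of miRNAs detected nowhere. The scale factors under normexp were 1.86 and 1.14 there and 0.653 and 0.576 for untreated wild type cells. The excess of untreated knockout over wild type stayed positive, at 0.76, although it missed the threshold (limma adjusted p = 0.107).

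**Figure D2:**
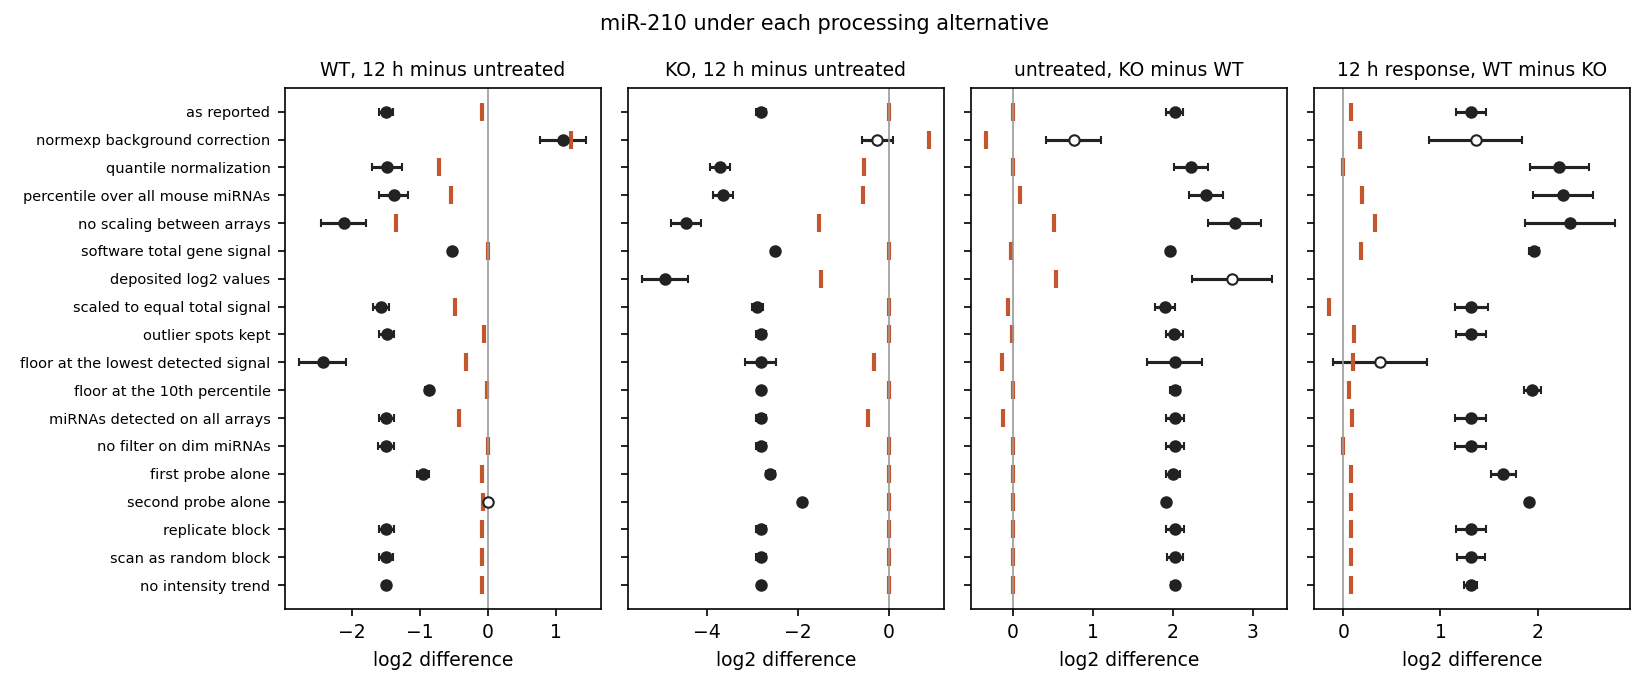
Log2 difference of miR-210 in 4 comparisons under each processing alternative, with the SE of the fit as bars where larger than the point. Filled points passed an adjusted p under 0.05, open points did not, and orange ticks are the median of all miRNAs in that fit. The wild type fall at 12 h is negative in every setting with a value but normexp (1.11) and the second probe alone (0), and the untreated excess of knockout over wild type is positive in all of them, from 0.76 to 2.77.

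Under tunicamycin miR-210 was still higher in knockout than in wild type cells. At 12 h the scaled signals of 17.1 and 15.7 in knockout stood against 6.40 and 4.31 in wild type, where it was not detected. By the bound used above knockout cells had at least 1.1-fold more (fitted difference 0.71, SE 0.11, limma adjusted p = 0.0112), and 1.56% of miRNAs were higher. The call depended on single arrays and on the scaling. It lost its call without either knockout array at 12 h (adjusted p 0.117 without the first, with a value of 0.65, and 0.0758 without the second, with 0.77), and it was 0.15 with the percentile over all miRNAs and 0.08 with a floor at the 10th percentile of detected signals. Under normexp it was -0.61. At 24 h knockout cells had, by the same bound, at least 1.90-fold more (fitted difference 1.35, SE 0.11, limma adjusted p = 0.000424), and 4.69% of miRNAs were higher. Against each of the wild type arrays alone this bound is 1.13-fold and 3.21-fold. Under normexp this value was -0.33, and without scaling between arrays it was 0.60 and did not pass. Within the scans the floored differences were 0.77 and 0.65 at 12 h and 1.32 and 1.37 at 24 h.

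The study set out to find miRNAs whose 12 h response depends on XBP1. For miR-210 the difference between the responses, wild type minus knockout, was 1.31 (SE 0.15, limma adjusted p = 0.00498), and 3.52% of miRNAs had a positive difference that passed. The wild type level met the floor after a fitted change of -1.501, while the knockout level started 2.02 higher and fell by 2.81. With the floor lowered to the lowest signal of any detected miRNA, the difference was 0.38 (limma adjusted p = 0.997), and under normexp it was 1.36 and lost its call (limma adjusted p = 0.149). At 24 h the difference was 0.67 (SE 0.15, limma adjusted p = 0.0555), where 1.95% of miRNAs passed in this direction, and it turned to -0.84 with the lowered floor (limma adjusted p = 0.641). At either time, these arrays therefore do not show in which genotype miR-210 fell more.

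Ordered by mean scaled signal, untreated knockout cells stood highest at 115 ± 2.08 (SD, n = 2), followed by untreated wild type cells at 28.4 ± 0.529 and knockout cells at 24 h with 25.6 ± 0.615. Knockout cells at 12 h had 16.4 ± 0.994. Wild type cells at 12 h and 24 h came last, at 5.36 ± 1.48 and 3.53 ± 0.263, both not detected. The log2 difference between untreated wild type cells and knockout cells at 24 h was 0.15, with a 95% interval of the fit from -0.10 to 0.41, although their arrays did not overlap. The order of this pair depended on the scaling: the difference was 1.52 without scaling between arrays and 1.88 in the deposited values, and it turned to -0.34 under quantile normalization, -0.46 with the percentile over all miRNAs and -0.73 under normexp. The intervals of the other neighbours exclude 0, save for the last pair, where both groups were at the floor.

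Both probes for miR-210 showed the same order of untreated cells. The first probe had a mean processed signal, before scaling, of 33.9 ± 3.08 (SD over 10 spots) and 38.5 ± 3.90 in untreated wild type cells, against 238 ± 15.6 and 246 ± 13.4 in untreated knockout cells. The second probe gave 15.6 ± 2.75 and 17.9 ± 3.97 for wild type, and 115 ± 2.73 and 121 ± 1.51 for knockout, where 7 and 8 of its spots were kept after outliers were left out. On these 4 arrays the first probe was brighter than the second by a ratio of 2.17, 2.16, 2.07 and 2.04, nearly constant across the change in level. After tunicamycin the second probe no longer stood apart from 0 in wild type cells, with 0.146 and -0.0338 at 12 h and -0.306 and -0.896 at 24 h. In knockout cells the first probe had 7.99 and 16.5 at 12 h and 13.1 and 14.8 at 24 h, and the second had 1.84 and 5.54 at 12 h and 4.43 and 4.44 at 24 h. The number of first-probe spots called well above background was 10 of 10 on each untreated array and 0 of 10 on each wild type tunicamycin array. In knockout cells it was 1 and 0 at 12 h but 9 and 7 at 24 h. These counts did not follow brightness before scaling. The second 12 h array, with 0 such spots, had a first-probe mean of 16.5, above the 13.1 and 14.8 of the 24 h arrays. No spot of miR-210 was saturated. With the second probe alone, untreated wild type cells were themselves under the floor, so the wild type falls became 0. The first probe alone gave -0.95 at both times in wild type and -2.60 at 12 h in knockout.

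**Figure D3:**
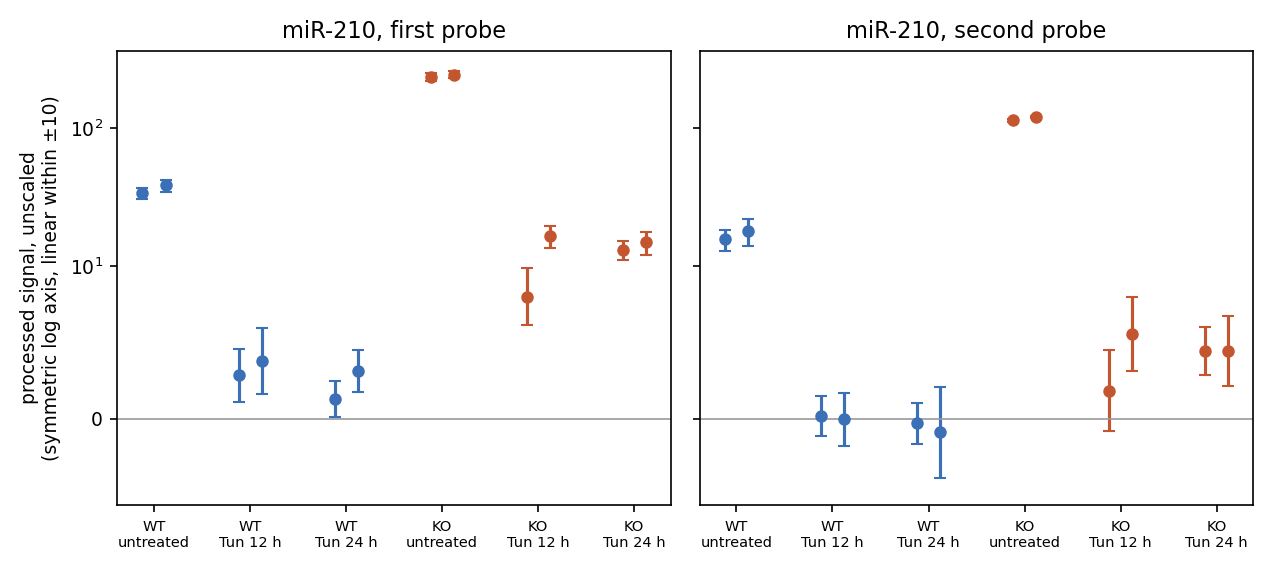
Mean processed signal of each miR-210 probe on each array, before scaling, with the SD over its spots as bars, on an axis that is linear between -10 and 10 and logarithmic outside. Both probes are highest on the untreated knockout arrays (238 and 246 for the first, 115 and 121 for the second) and near 0 on the wild type tunicamycin arrays.

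The miRNAs whose level followed that of miR-210 most closely were sought among the others in the fit, by Pearson's r over the 12 arrays. As the arrays share slides and scaling, r is given as a description. The 5 highest were miR-143 (r = 0.969), miR-222 (0.963), miR-322 (0.959), miR-107 (0.928) and miR-103 (0.926), while the median over 237 miRNAs was -0.04. miR-143 is abundant in smooth muscle and other mesenchymal cells, miR-222 represses the cell cycle inhibitor p27, and miR-322, the mouse counterpart of miR-424, is induced during muscle differentiation. miR-103 and miR-107, encoded in introns of the Pank genes, repress Dicer. Since the 5 were chosen for that likeness, a peak in untreated knockout cells and a lower level at 12 h come with the choice, and their values are a description. The differences at 12 h in wild type, where 25.4% of all miRNAs fell, were for miR-143 -1.36, for miR-222 -0.58, for miR-322 -1.91, for miR-107 -1.04 and for miR-103 -1.32. Under normexp the wild type values of 4 of them turned positive, miR-322 being the exception at -0.46. miR-222, like miR-210, was at the floor on all 4 wild type tunicamycin arrays. In untreated cells the excess of knockout over wild type was 1.16 for miR-222 and 1.32 for miR-322. For miR-143, miR-107 and miR-103 the values were 1.05, 0.48 and 0.55, which did not pass an adjusted p under 0.05. All were smaller than the excess of miR-210. The same 5 led when r was taken over the 6 group means, 3 of them were among the 5 highest by Spearman's rho, and 1 was when the arrays were not scaled. The lowest r were those of miR-720 (-0.823), a fragment of a transfer RNA by later annotation, and miR-299* (-0.818), from the imprinted Dlk1-Dio3 region.

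Their mature sequences, from RefSeq, are printed with the seed in capitals to show whether a shared seed goes with the shared pattern. The seeds of miR-107 and miR-103 are identical, and no other pair of the 5 printed shares a seed. The seed of miR-322 overlaps theirs, since its bases also open miR-107 and miR-103, from their first base on. miR-143 is named only.
miR-210-3p: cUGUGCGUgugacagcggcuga
miR-222-3p: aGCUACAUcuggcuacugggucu
miR-322-5p: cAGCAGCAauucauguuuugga
miR-107-3p: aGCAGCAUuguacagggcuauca
miR-103-3p: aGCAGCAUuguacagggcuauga

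**Figure D4:**
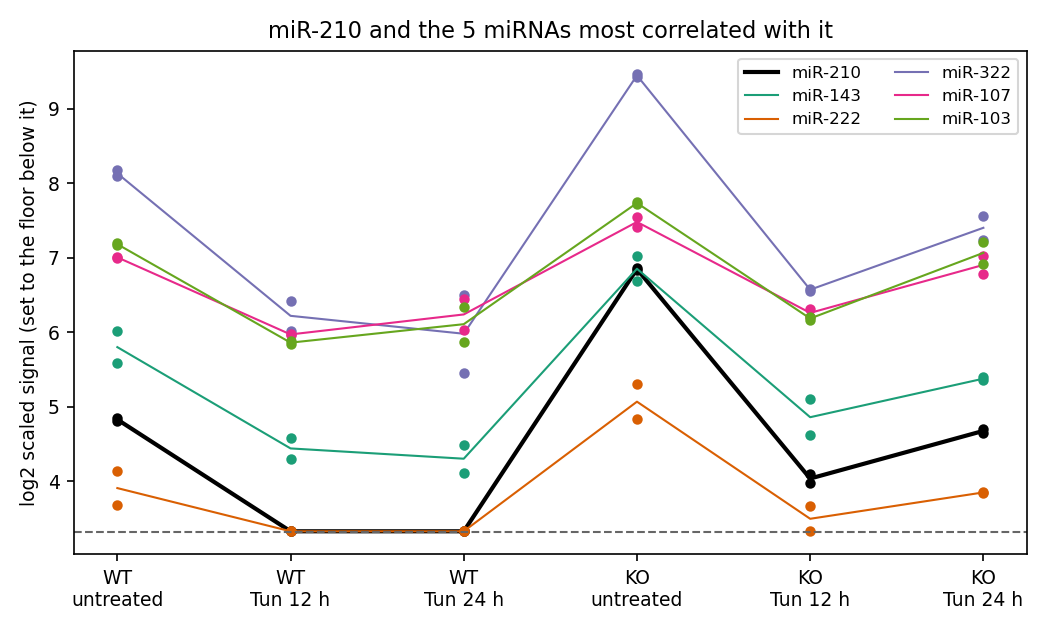
Log2 scaled signal of miR-210 (black) and of the 5 miRNAs most correlated with it, by group. Points are arrays, lines join group means of 2 arrays, and the dashed line is the floor at 3.33. All 6 miRNAs are highest in untreated knockout cells, and miR-210 and miR-222 lie on the floor in both wild type tunicamycin groups.

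Other miRNAs that have been linked to hypoxia were described beside miR-210, as a list of 22 that were all measured and fitted. It holds miR-322, miR-107 and miR-103 too. After 12 h of tunicamycin 13 of the 22 fell and 0 rose in wild type cells, with a median of -0.67 against -0.09 over all 256 miRNAs, of which 25.4% fell and 25.4% rose. In knockout cells 13 fell and 1 rose, with a median of -0.96 against 0.00 over all miRNAs, of which 25.4% fell. Of the 256 miRNAs 110 were above the floor on every array, 18 list members among them. In wild type 36.4% of these 110 fell and 8.18% rose (median -0.45), against 61.1% and 0% of the 18 (median -0.79). In knockout 37.3% of the 110 fell and 9.09% rose (median -0.48), against 61.1% and 5.56% of the 18 (median -0.99). The members with the smallest p-values in wild type were miR-181a (-1.19), miR-93 (-1.04), miR-26a (-1.76) and miR-103 (-1.32). In knockout they were miR-195 (-2.66), miR-181a (-0.95), miR-103 (-1.55) and miR-322 (-2.88). miR-181a was at the floor on 8 of the 12 arrays and miR-195 on 3, so the sizes of their falls are limited. The member that rose was miR-155, an immune regulator (0.97, SE 0.21, limma adjusted p = 0.00768), among 23.8% of all miRNAs that rose. In wild type 20 of the 22 had a less negative value than miR-210, which was set by its floor, the other two being miR-26a and miR-322. In knockout cells 21 had a less negative value, miR-322 being the exception.

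At 24 h the list had 8 lower and 0 higher in wild type, with a median of -0.63. Of all miRNAs 14.8% fell there, 38 of the 45 that passed. Of the 110 above the floor on every array 14.5% fell and 4.55% rose, against 33.3% and 0% of the 18 list members among them. In knockout cells it had 5 lower and 3 higher, with a median of -0.32, where 10.9% of all miRNAs fell and 3.12% rose. From 12 h to 24 h in knockout cells 8 members rose and 0 fell, with a median of 0.54 against 0.00 over all miRNAs. Of all miRNAs 17.6% rose, 45 of the 101 that passed, and the rest of the 101 fell. Of the 110 miRNAs above the floor on every array, 35.5% rose and 9.09% fell between these times, with a median of 0.47. For the 18 list members among them the shares were 44.4% and 0% and the median 0.62. Under normexp the list medians at 12 h turned positive, to 0.32 in wild type and 0.20 in knockout, under the medians of 1.23 and 0.89 over all miRNAs. Under quantile normalization they were -1.41 and -1.37.

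**Figure D5:**
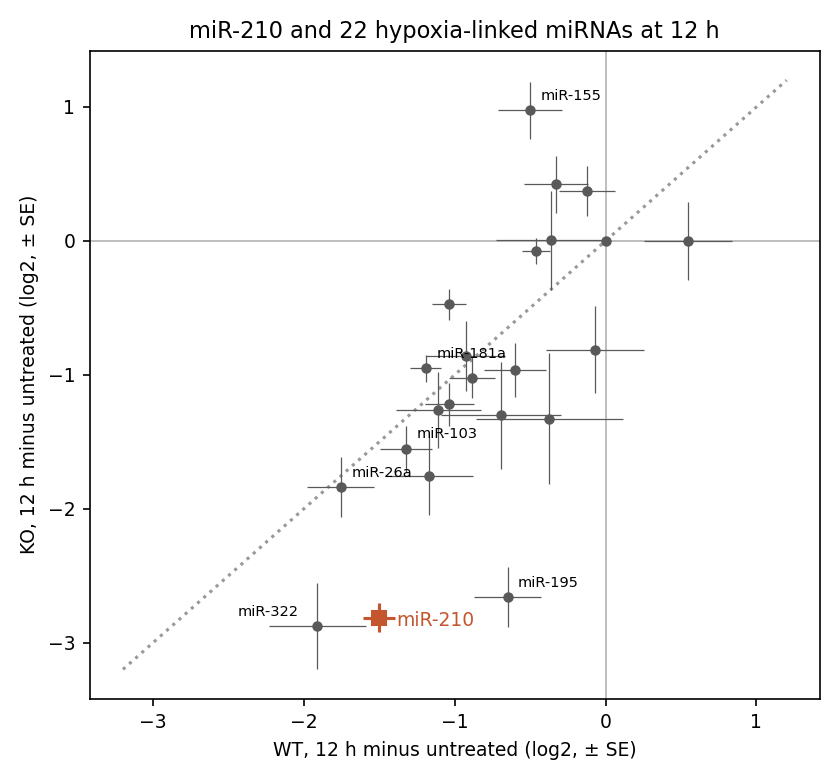
Log2 difference between 12 h of tunicamycin and untreated cells in wild type (x axis) and knockout (y axis) for miR-210 (orange square) and 22 hypoxia-linked miRNAs (grey), with the SE of the fit. Points on the dotted line changed alike. miR-210 lies at -1.50 and -2.81, beside miR-322 at -1.91 and -2.88, and miR-155 is the member that rose in knockout (0.97).

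Markers of cell types moved with the groups as well. The summed scaled signal of the 11 fibroblast markers was 19300 to 20600 in untreated wild type cells and 26400 to 27200 in untreated knockout cells. At 12 h it was 13100 to 14000 for wild type and 12200 to 15100 for knockout. At 24 h it was 14200 to 20000 for wild type and 19800 to 20800 for knockout. The sum of 7 markers of pluripotent cells, of which miR-294 alone was detected on any array, was 8.71 to 19.1 on the untreated arrays and 112 to 268 at 12 h. At 24 h it was 24.7 to 91.4. The muscle sum was 17 to 85.6 at 12 h and at most 10.2 on the untreated arrays. The neural sum was 27.1 and 30.6 in untreated knockout cells and 5.06 and 4.79 in untreated wild type cells, and it was under 0 on all tunicamycin arrays. The part of these shifts in the values of miR-210 was not tested. In such bulk samples, fewer cells of a type and less miRNA per cell cannot be told apart.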

How the data were processed

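Total RNA of 12 samples was labelled with Cy3 and hybridised to 1-colour Agilent miRNA arrays, per the labels. The authors' scanner files, made with Agilent Feature Extraction 10.7.1.1, hold each spot's median, background-subtracted and processed intensity, with the fit of a spatial detrending step, per the file headers. No header records a normalization between arrays, and array totals differ. The deposited log2 values matched that software's summary per miRNA, its total gene signal, with a largest gap of 1.15e-06.

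Processed signals were averaged over the spots of a probe, without those flagged as outliers, and summed over the probes of a miRNA. After scaling and flooring (given in the report), 256 mouse miRNAs that were detected in both replicates of some group were fitted with limma 3.58.1 in R 4.3.3: 1 mean per group, 12 arrays, eBayes with an intensity trend, 6 residual and 0.981 prior degrees of freedom, Benjamini-Hochberg adjustment within each of 11 comparisons, threshold 0.05. Arrays at the floor carry no variation, which makes the standard errors too small. The scripts were tested on simulated data. For normexp (offset 50) the median spot signal was used, since the files have no mean signal column. Named miRNAs were miR-210, the 5 with the highest and 2 with the lowest r, list members with the 4 smallest p-values at 12 h in each genotype, and any sharing the seed; miR-155 was named after its value was seen. The members and lists were chosen with earlier results of these data known. Files were read with the R package data.table, version 1.17.8, and plots made with matplotlib 3.10.9 in Python 3.11.15.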

Additional observations from a re-analysis of the deposited data

Results flagged for a closer look

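The difference between the genotypes' 12 h responses of miR-210, 1.31 on the log2 scale (wild type minus knockout, limma adjusted p = 0.00498), was singled out because the 2 genotypes differed in the same contrast by a direct test. Wild type cells met the floor at 12 h on both arrays, and with the lowest floor the value was 0.38.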

How the results depend on the processing

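Each of the 13 results was recomputed under 24 to 29 alternatives, among them leaving out each array in turn. Scaling to equal total signal was chosen after seeing the data, and it changed no call. In the order wild type 12 h, wild type 24 h, knockout 12 h and knockout 24 h against untreated, normexp gave 1.11, 1.06, -0.25 and -0.024. It gave 0.23 for knockout 24 h against 12 h, 0.76, -0.61 and -0.33 for knockout minus wild type when untreated, at 12 h and at 24 h, 1.36 for the 12 h response difference (call lost, limma adjusted p = 0.149), 0.47 for tunicamycin over both genotypes and -0.059 for genotype over all conditions. The level of the spots of miRNAs never detected, before normexp, is given in the report.

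The fall in knockout cells at 12 h and 24 h lost its call under normexp alone, and that in wild type also with the second probe alone (0 at both times). Knockout 24 h against 12 h was 0.17 without scaling, 0 for the second probe and for the software's total gene signal, 0.29 with the deposited values and 0.64 (limma adjusted p = 0.171) with the lowest floor. Knockout minus wild type at 12 h was 0 under quantile normalization, the total gene signal and the second probe, 0.15 with the percentile over all miRNAs, 0.43 without scaling, 0.076 with the 10th percentile floor and 0.35 with the first probe. At 24 h it was 0.60 without scaling, and 0 for the second probe and the total gene signal. The untreated difference was 2.74 (limma adjusted p = 0.0586) with the deposited values. The 12 h response difference was 0.38 and the 24 h one -0.84 with the lowest floor. The 24 h one passed the threshold at 2.17 without scaling, 1.96 with the total gene signal, 1.305 with the 10th percentile floor, 1.05 and 1.91 with the first and second probe, and 0.67 with scan as a random block or no intensity trend. Tunicamycin over both genotypes was -0.955 with the second probe, and genotype over all conditions 1.35 under quantile normalization (exact permutation p = 0.0556), 0.65 (total gene signal) and 0.64 (second probe). The causes of these changes were not tested, except that a probe or summary under the floor in both groups gives 0 by construction.

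With 1 array left out, knockout 24 h against 12 h ran from 0.58 to 0.70, knockout minus wild type at 12 h from 0.65 to 0.77 and the 24 h response difference from 0.65 to 0.70, the last passing without any 1 of the 4 untreated or 24 h knockout arrays. The replicate number as a block gave 1.31 for the 12 h response difference and changed no call. Over 15 pairs of groups, deviations of same-numbered arrays correlated from -0.547 to 0.867, so the numbers were not taken to pair the arrays. The number of all miRNAs past the threshold, over the alternatives and left-out arrays, was 130 as reported for wild type at 12 h, 42 among miRNAs detected on all arrays, 176 without scaling and more only under normexp. It ran from 16 to 191 (45) at 24 h and 12 to 116 (56) between them. In knockout it ran from 48 to 196 (65 lower and 61 higher as reported), 16 to 188 (36) and 0 to 139 (101). For knockout minus wild type it ran from 0 to 56 (32) untreated, 0 to 40 (13) at 12 h and 0 to 58 (20) at 24 h, and for the response differences from 2 to 31 (15) and 1 to 44 (12). The number of arrays, and signal over background for a miRNA this dim, limit the precision.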
